A study of Mus musculus with 10 samples.

Results

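Gml, Hemt1, Ly6a, Ly6e, Ly6c1 and Ly6d are 6 of the 36401 genes in the count tables, taken by their symbols, each of which was listed under 1 Ensembl gene. Gml and Hemt1 were chosen because their counts were higher in every library of the operated mice than in every control library, and the other 4 because they belong to the same gene family. The levels of Gml and Hemt1 are therefore a description with no test. For Ly6a, Ly6e, Ly6c1 and Ly6d the choice used no values, and the question was whether they follow Gml and Hemt1.

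The tissue was terminal ileum of male C57Bl6 mice made obese on a diet with 60 kcal % fat for 6 weeks before surgery at the age of 8 weeks. The mice of the 5 VSG libraries had a vertical sleeve gastrectomy, which removes most of the stomach, and then ate freely. Those of the 5 sham libraries had a sham operation and were pair-fed to the VSG mice. Both groups received liquid Osmolite during the 4 perioperative days. About 8 weeks after surgery all were fasted overnight, gavaged with 0.5 mL Osmolite and killed 1 hour later. The libraries are numbered 1 to 5 within each group, and the labels give no animal numbers.

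The Ly6/uPAR family comprises small, cysteine-rich proteins with a fold of finger-like loops, most of them tethered to the outer cell membrane by a glycosylphosphatidylinositol (GPI) anchor. In the mouse many of its genes lie side by side in a cluster on chromosome 15, where neighbours are often near copies of each other. Several of them, Ly6a and Ly6e above all, are known to be induced by interferon and are widely used as surface markers of blood, immune and progenitor cells. Gml encodes a GPI-anchored protein whose human counterpart was described as a p53-induced gene, and Hemt1 was named as a transcript of haematopoietic cells.

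How far reads can tell these genes apart limits every value below, so the stretches of coding sequence that are alike are shown first, from GENCODE M21 transcripts (GRCm38). Hemt1, matched by its Ensembl gene, is named Gml2 there. It is the immediate neighbour of Gml, with Gml on the minus and Hemt1 on the plus strand. Over their 528 coding bases 457 were identical (86.6%), with an unbroken identical run of 130 bases. The lines below give coding bases 81 to 180 of each, counted from the start codon, 5′ to 3′ on the coding strand, with the 18 bases that differ in capitals.
Gml: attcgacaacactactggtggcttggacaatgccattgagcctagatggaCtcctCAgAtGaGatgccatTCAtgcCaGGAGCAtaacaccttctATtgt
Hemt1: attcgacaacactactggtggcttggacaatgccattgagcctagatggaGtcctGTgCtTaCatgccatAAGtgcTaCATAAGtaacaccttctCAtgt
The first 50 of these bases are the same in both genes, which is the length of a read in these libraries.

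Ly6c1 has an even closer copy in Ly6c2: 91.6% of their aligned coding bases (359 bases) were identical, with an identical run of 188 bases. Coding bases 204 to 303 of each, both on the minus strand of chromosome 15, differ at 1 base, again in capitals.
Ly6c1: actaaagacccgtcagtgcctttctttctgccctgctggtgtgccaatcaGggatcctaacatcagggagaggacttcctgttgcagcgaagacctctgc
Ly6c2: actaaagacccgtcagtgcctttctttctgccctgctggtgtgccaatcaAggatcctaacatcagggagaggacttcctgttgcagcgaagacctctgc
Of the 50-base windows of all annotated Gml transcripts, 206 of 1101 (18.7%) also occurred in another gene, in each case Hemt1. For Hemt1 442 of 1435 windows (30.8%) were shared, 206 of them with Gml and 236 with Cyp11b1, its neighbour on the other side. Ly6c1 shared 32.8% of its windows and Ly6a 19.0%, whereas Ly6d shared 0 of 695 and Ly6e 0 of 4184. The deposited counts of Ly6d were whole numbers in all 10 libraries and those of Gml and Hemt1 in 4 libraries each, but those of Ly6e, which shared no window either, in 0 libraries. The division of reads that match several genes is not stated by the labels or files, so Gml and Hemt1, and likewise Ly6c1, Ly6c2 and Ly6a, are uncertain as single genes.

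Library totals lay between 15364651 and 34058181 estimated counts, and 15678 genes passed the filter on low counts, all 6 genes among them. VSG 2, sham 2 and sham 4 stood apart from the other 7 libraries. Gata4, a transcription factor that marks duodenum and jejunum, stood at 120.8 normalised CPM (read counts scaled to a common library size) in VSG 2, and at 109.4 and 183.3 CPM in sham 2 and sham 4, against 1.72 to 6.28 CPM in the other 7 libraries. Fabp6, the bile acid binding protein that defines ileum, stood at 38.9, 57.2 and 62.0 CPM in those 3 libraries and at 2556 to 6106 CPM in the other 7. The ileum label was therefore not borne out by Fabp6 in those 3 libraries, and the results of the 6 genes are given with and without them.

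Gml was about 4.5-fold and Hemt1 about 5.5-fold higher in VSG than in sham ileum, both at low levels. Gml stood at 7.29, 2.27, 6.08, 2.22 and 4.26 CPM in VSG 1 to 5, against 0.909, 0.291, 1.71, 0.724 and 1.18 CPM in sham 1 to 5. The lowest VSG value, 2.22 CPM in VSG 4, lay above the highest sham value, 1.71 CPM in sham 3. Its fold change was 4.52 (95% interval 2.16 to 9.45), a log2 fold change of 2.17 ± 0.48 (SE), here a description of the values that chose the gene.

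Hemt1 stood at 4.16, 1.03, 3.41, 1.20 and 2.10 CPM in VSG 1 to 5, against 0.455, 0.161, 0.807, 0.278 and 0.416 CPM in sham 1 to 5. The lowest VSG library for Hemt1 was VSG 2, at 1.03 CPM, and the highest sham library was again sham 3, at 0.807 CPM. Its fold change was 5.54 (95% interval 2.58 to 11.9), on the log2 scale 2.47 ± 0.50 (SE). All 5 VSG libraries were above all 5 sham libraries for 0.262% of the genes tested; since this is how both genes were chosen, nothing is read from it.

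The reads behind these values were few. Gml had between 58.5 and 186.65 estimated counts in VSG libraries and between 9 and 45.51 in sham libraries. Hemt1 had between 26.5 and 106.5 in VSG and between 5 and 20.5 in sham libraries. The 5 counts of Hemt1 in sham 2 have an exact 95% Poisson interval of 1.62 to 11.7 counts, which covers counting error only. Counted as 1 gene, Gml and Hemt1 together were higher by 2.28 ± 0.48 (SE) on the log2 scale, between the values of the 2 genes. Without VSG 2, sham 2 and sham 4 the log2 fold change was 1.95 for Gml and 2.29 for Hemt1.

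The 2 genes kept close to each other in every library. The count of Gml was 1.75 to 2.21 times that of Hemt1 in VSG libraries and 1.80 to 2.84 times in sham libraries, ranges that overlap. Over the 10 libraries their log2 levels had a Pearson correlation of 0.989, and their deviations from the group means one of 0.965, so they also moved together among libraries of the same group. The part of the shared windows in this likeness was not tested. Among 14136 genes averaging 1 CPM or more, Hemt1 was the gene most like Gml, and Gml most like Hemt1. Next for both came Myo19, a myosin of mitochondria (r = 0.942 with Gml and 0.936 with Hemt1), followed for Gml by Ppard, a fatty acid receptor of the nucleus, Abcb10 and C2cd4b (r = 0.922 to 0.930). For Hemt1 the next were Kctd5, Sptlc2, a subunit of the enzyme that starts sphingolipid synthesis, and Slc35f2 (r = 0.914 to 0.924). These correlations include the difference between the groups for which Gml and Hemt1 were chosen.

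**Figure D1:**
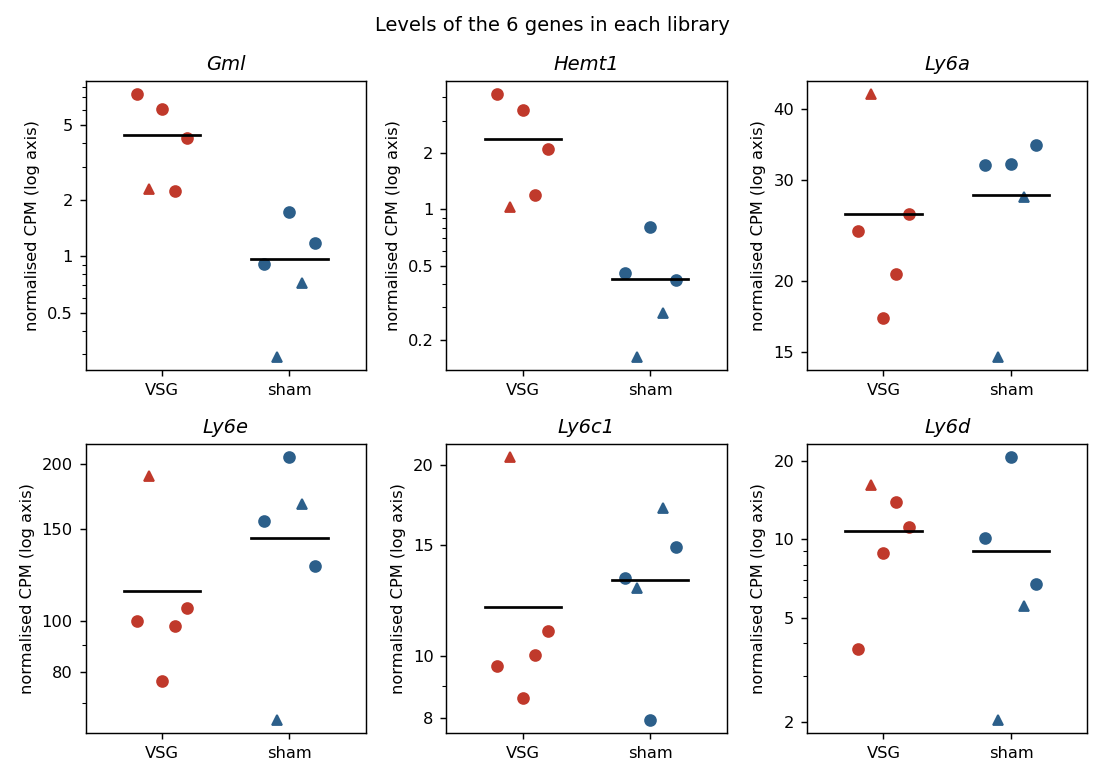
Normalised CPM (log axis) of the 6 genes in each library, VSG on the left and sham on the right of each panel, replicates 1 to 5 from left to right within a group, with a line at the group mean. Triangles mark VSG 2, sham 2 and sham 4. The groups do not overlap for Gml and Hemt1, by which these were chosen, and overlap for Ly6a, Ly6e, Ly6c1 and Ly6d.

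Over the 10 libraries none of the 4 Ly6 genes separated the groups as Gml and Hemt1 did. Ly6a, Ly6e and Ly6c1 were slightly lower and Ly6d slightly higher in VSG ileum, each by less than the spread between libraries. On the log2 scale the interval of Ly6d reached 1.44, and those of Gml and Hemt1 began at 1.11 and 1.37. Since Gml and Hemt1 were chosen by this contrast, their fold changes are no measure for the 4. By edgeR's quasi-likelihood test 0 of 15678 genes passed an adjusted p of 0.05, a share of 0%, with 595 at an unadjusted p under 0.05 (1.88% of genes higher and 1.91% lower in VSG), none of them among these 4. limma-voom also called 0 genes and DESeq2 11 of 15629, a share of 0.0704%, none of them among these 4. All 5 VSG libraries were below all 5 sham libraries for 0.3% of genes, again for none of these 4. In bulk tissue, fewer cells of a type and less RNA per cell cannot be told apart.

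Ly6a encodes stem cell antigen Sca-1, a marker of haematopoietic stem cells that also appears in regenerating gut epithelium. It stood at 24.4, 42.4, 17.2, 20.6 and 26.2 CPM in VSG 1 to 5, against 31.9, 14.7, 32.1, 28.1 and 34.5 CPM in sham 1 to 5. The highest value, in VSG 2, and the lowest, in sham 2, both came from libraries rich in Gata4. The means were 26.2 ± 9.7 CPM in VSG and 28.2 ± 7.9 CPM in sham libraries (SD, n = 5 each). The log2 fold change was -0.11 (95% interval -0.71 to 0.49; edgeR adjusted p = 0.985), and an exact two-sided permutation test over the 252 assignments of libraries gave p = 0.722, where the smallest possible p is 0.0079.

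Ly6e, whose interferon-induced product restricts the entry of several viruses, was the most abundant of the 6 genes also per kilobase of transcript, at 50.1 ± 19.2 CPM per kilobase in VSG and 63.3 ± 23.1 in sham libraries (SD, n = 5 each). It stood at 100.1, 190.0, 76.9, 98.2 and 105.9 CPM in VSG 1 to 5, against 155.9, 64.9, 206.4, 167.4 and 127.7 CPM in sham 1 to 5. In 4 of 5 VSG libraries Ly6e lay below 4 of 5 sham libraries, with VSG 2 and sham 2 the exceptions, so the groups overlapped. These exceptions were named after the values were seen. The log2 fold change was -0.34 (95% interval -1.02 to 0.35; edgeR adjusted p = 0.977), with an exact permutation p of 0.389.

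Ly6c1 encodes one of the antigens read as Ly6C, which marks monocytes and, in many tissues, endothelium. It stood at 9.65, 20.6, 8.60, 10.1 and 10.96 CPM in VSG 1 to 5, against 13.3, 12.8, 7.95, 17.1 and 14.9 CPM in sham 1 to 5. The lowest library was sham 3 and the highest VSG 2, so the groups overlapped. Apart from these 2 libraries, the VSG values (8.60 to 10.96 CPM) lay below the sham values (12.8 to 17.1 CPM). These 2 were set aside because they break that split, so nothing is read from it. The log2 fold change was -0.14 (95% interval -0.74 to 0.46; edgeR adjusted p = 0.985; exact permutation p = 0.556). Summed with its near copy Ly6c2 it was -0.12 ± 0.25 (SE).

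Ly6d is known from early B cell progenitors and from stratified epithelia. It stood at 3.79, 16.2, 8.84, 13.9 and 11.1 CPM in VSG 1 to 5, against 10.1, 2.03, 20.7, 5.57 and 6.73 CPM in sham 1 to 5. Sham libraries held both the highest and the lowest value, about 10-fold apart, and all VSG values lay between them. The log2 fold change was 0.26 (95% interval -0.93 to 1.44; edgeR adjusted p = 0.985; exact permutation p = 0.5).

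In the 7 libraries without VSG 2, sham 2 and sham 4, Ly6a and Ly6e separated by group, in the direction opposite to Gml and Hemt1. Ly6a was 22.1 ± 4.0 CPM in 4 VSG and 32.8 ± 1.5 CPM in 3 sham libraries (SD), with VSG at 17.2 to 26.2 and sham at 31.9 to 34.5 CPM. Ly6e was 95.3 ± 12.7 CPM in VSG and 163 ± 40 CPM in sham libraries (SD), at 76.9 to 105.9 and 127.7 to 206.4 CPM. All 4 VSG libraries were below all 3 sham libraries for 3.79% of the 15911 genes tested there, and above for 4.35%. The log2 fold changes were -0.57 (95% interval -0.95 to -0.18) for Ly6a and -0.78 (-1.22 to -0.33) for Ly6e. Neither passed the threshold, with an edgeR adjusted p of 0.633 for each and 0 genes called in these 7 libraries, where 1107 had an unadjusted p under 0.05.

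Ly6c1 overlapped between the groups in the 7 libraries, with a log2 fold change of -0.29 (95% interval -0.83 to 0.24). Ly6d was lower in VSG there, at -0.40 (-1.49 to 0.69), where it was higher in all 10. Of the near copies, Ly6c2 was 4.52 ± 0.89 CPM in VSG and 6.03 ± 0.20 CPM in sham libraries, and Ly6i 0.474 ± 0.092 and 0.781 ± 0.014 CPM (SD, n = 4 and 3). For both, all 4 VSG libraries were below all 3 sham libraries. Their log2 fold changes were -0.41 for Ly6c2 and -0.72 for Ly6i, with edgeR adjusted p values of 0.749 and 0.704. Lypd6b, which passed the filter on low counts only in these 7 libraries, was 0.167 ± 0.085 CPM in VSG and 0.487 ± 0.085 CPM in sham libraries (SD, n = 4 and 3), with a log2 fold change of -1.56 (95% interval -2.62 to -0.51; edgeR adjusted p = 0.633). Its groups did not overlap in the 7 libraries but did in all 10. It had 14 to 16 counts in the 3 sham libraries and 2 to 6 in the 4 VSG libraries. Lypd6b thus passed the filter only through the group where it was high, so nothing is read from its difference. Of the 18 family genes tested in the 7 libraries, Gml, Hemt1 and Lypd6b included, 7 were higher and 11 lower. All VSG libraries were below all sham libraries for 5 of the 18, against 3.79% of all genes. These were Ly6a, Ly6e, Ly6c2, Ly6i and Lypd6b. Lypd6b came in through the filter and Ly6i is a near copy of Ly6a, so nothing is read from the count of 5. Of those 5, Ly6a and Ly6e had an unadjusted p under 0.05, leaving Lypd6b aside because of the filter.

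Markers of several other cell types were lower along with Ly6a and Ly6e in these 7 libraries, where 56.8% of all genes were lower in VSG. Of 31 interferon-induced genes 27 were lower in VSG, 14 of them at an unadjusted p under 0.05 and 0 at an adjusted one. Of all genes, 3.26% were lower and 3.7% higher at an unadjusted p under 0.05. Their summed level was 633 to 804 CPM in VSG and 878 to 968 CPM in sham libraries. All 12 T cell markers were lower, at a summed 27.9 to 63.5 CPM in VSG and 48.9 to 103 CPM in sham, as were 8 of 10 markers of monocytes, macrophages and neutrophils, at 233 to 522 and 717 to 840 CPM. The sums of this last list were mostly Lyz2, at 124.3 to 372.8 CPM in VSG and 534.9 to 707 CPM in sham libraries. Of the 10 tested markers of this list 3, Lyz2 among them, had all VSG libraries below all sham libraries, against 3.79% of all genes. Mpeg1, for example, overlapped, at 35.29 to 46.23 CPM in VSG and 41.19 to 74.66 CPM in sham libraries. A sum without Lyz2 was not taken, so the gap between the sums is not read as one of the whole list. Also lower were 7 of 7 B cell markers (17.9 to 199 CPM in VSG and 80.8 to 246 CPM in sham), 5 of 5 red blood cell markers (36.3 to 137 and 82.1 to 173 CPM), 6 of 6 smooth muscle markers (636 to 1380 and 256 to 3490 CPM) and 10 of 12 endothelial markers (154 to 194 and 119 to 285 CPM). Higher in VSG there were 6 of 6 plasma cell, 5 of 5 ileum and 4 of 6 intestinal epithelium markers. Of stratified squamous and upper small intestine markers, 4 of 5 and 4 of 7 were lower. No marker of the T cell and myeloid lists was at 0 in any library. The part of these lists in the result was not tested. Over all 10 libraries the interferon-induced genes were mixed: 21 of 31 were lower in VSG, where 58.1% of all genes were, with a median log2 fold change of -0.046 against -0.045 for all genes. The 3 with the lowest p there were Mx1 (0.51), Ifih1 (0.27) and Irgm1 (-0.48 on the log2 scale), each with an edgeR adjusted p of 0.977. Mx1 and Ifih1, both higher in VSG, were the only 2 of the 31 at an unadjusted p under 0.05.

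Across all 36 family genes listed, 34 were matched by symbol and 17 passed the filter. Of these 17, 8 were higher and 9 lower in VSG, where 41.9% of all genes were higher and 58.1% lower. Leaving out the 6 genes above, 11 of 28 were tested, with 5 higher, 6 lower and a median log2 fold change of -0.02, near the -0.045 of all genes. None of the 11 passed an adjusted p of 0.05 or an unadjusted one, and none had groups that did not overlap. Another 17 family genes were too low to test. Slurp1, Lypd4, Lypd5, Tex101 and Ly6g5c had no count in any library, and Ly6g, the neutrophil antigen, had at most 0.0814 CPM.

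The most abundant family gene was 2210415F13Rik, an older symbol of Lypd8, whose secreted product keeps flagellated bacteria off the colon epithelium. It averaged 1786 ± 462 CPM in VSG and 1680 ± 886 CPM in sham libraries (SD, n = 5 each). The log2 fold change was 0.09 (95% interval -0.64 to 0.82). Plaur, the urokinase receptor, averaged 18.5 ± 8.2 and 13.1 ± 4.6 CPM, with a log2 fold change of 0.50 (-0.26 to 1.25). For Cd177, a neutrophil surface protein, the log2 value was 0.58 (-0.68 to 1.85), and for Gpihbp1, which carries lipoprotein lipase across capillary endothelium, it was 0.21 (-0.39 to 0.81). Among those lower in VSG, Cd59a, which blocks the complement pore, had -0.91 (-2.22 to 0.40), Lypd1 -0.73 (-2.11 to 0.66) and Lynx1, a modulator of nicotinic receptors, -0.25 (-0.66 to 0.16). Single libraries decided the size of the first 2: Cd59a was -0.14 without sham 5, and Lypd1 was -1.47 without VSG 2, -0.38 without sham 2 and -0.41 without sham 4. Ly6c2, Ly6g6d, Ly6i and Ly6g5b lay between -0.09 and 0.02. The intervals of all 11 genes covered 0.

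Along the cluster, from Psca to Gpihbp1, 26 genes of the annotation were in the count tables and 14 were tested. Gml and Hemt1, chosen by this contrast, stood next to each other at log2 fold changes of 2.17 and 2.47. The intervals of the other 12 tested genes covered 0, the highest ending at 2.05. Cyp11b1, which makes corticosterone and adjoins Hemt1, was too low to test, with 34 counts in all 10 libraries. It averaged 0.213 ± 0.134 CPM in VSG and 0.0487 ± 0.0399 CPM in sham libraries (SD, n = 5 each), and its lowest VSG library, at 0.135 CPM, lay above its highest sham library, at 0.0974 CPM. Since Hemt1 and Cyp11b1 share windows, these few counts cannot be told apart from reads of Hemt1. Ly6k, on the far side of Gml, was also too low to test, at 0.160 to 2.53 CPM in VSG and 0.117 to 0.670 CPM in sham libraries.

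The next tested gene beyond Cyp11b1 was 2010109I03Rik, which RefSeq names Ly6m. It stood far above the 6 genes, at 582 ± 274 CPM per kilobase of transcript in VSG and 307 ± 183 in sham libraries (SD, n = 5 each). In CPM it ranged between 384.5 and 1559 in VSG and between 140.2 and 1029 in sham libraries, so the groups overlapped. The log2 fold change was 0.92 (95% interval -0.20 to 2.05; edgeR adjusted p = 0.977). In the 7 libraries it was 0.98 (0.11 to 1.84; edgeR adjusted p = 0.696). Ly6e, the following tested gene, was lower in VSG in both sets.

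**Figure D2:**
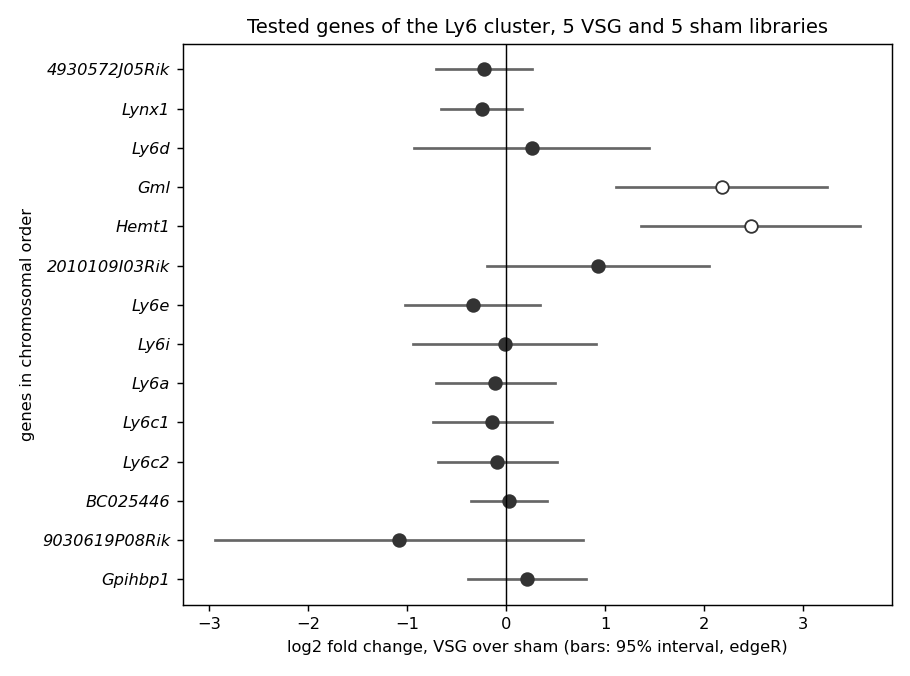
Log2 fold change of VSG over sham for the 14 tested genes between Psca and Gpihbp1, in chromosomal order down the page, with 95% intervals from edgeR over 5 VSG and 5 sham libraries. Open circles are Gml and Hemt1, chosen by this contrast, at 2.17 and 2.47; the intervals of the other 12 cover 0.

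Among themselves the family genes fell into sets that varied together over the 10 libraries. Ly6a and its near copy Ly6i correlated at 0.972, Ly6a and Ly6e at 0.898, and Ly6c1 and Ly6c2 at 0.794 (Pearson, log2 CPM, n = 10). Gml and Hemt1 correlated with these 5 and with Ly6d at between -0.532 and 0.341. Of their aligned coding bases 86.3% were identical between Ly6a and Ly6i and 91.6% between Ly6c1 and Ly6c2, and the part of this in the correlations was not tested. Ly6a and Ly6e shared no window.

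**Figure D3:**
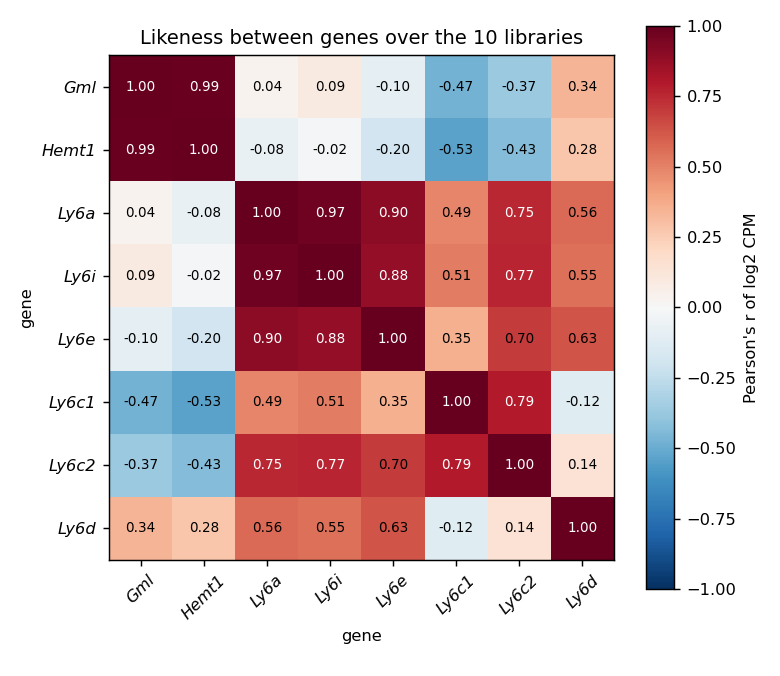
Pearson correlation of log2 CPM between 8 family genes over the 10 libraries, from -1 (blue) to 1 (red). Gml and Hemt1 form one block at 0.99 and Ly6a, Ly6i and Ly6e another at 0.88 to 0.97, with values near 0 between the 2 blocks.

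The levels of the Ly6 genes were also set against summed cell markers, in 12 relations that were chosen after the data had been seen, with permutation p values (100000 resamples, two-sided) adjusted over the 12. Because the relations were chosen on these same data, the p values describe their strength and are no independent evidence for them. The adjustment covers only these 12. The 4 relations with Gml or Hemt1 count among the 12 but are given as a description with no p. Ly6d followed the 7 B cell markers: r = 0.913 (permutation p = 9e-05, adjusted 0.00104) and rho = 0.964 (permutation p = 1e-05, the smallest these resamples can give, adjusted 0.00012). Without the 2 libraries farthest from the median, sham 2 and sham 4, r was 0.876, and within the 7 libraries 0.878. The summed B cell markers ranged between 17.9 and 199 CPM in VSG and between 9.28 and 246 CPM in sham libraries, with 6 of 7 higher in VSG and the lowest p for Cr2 (0.48), Ms4a1 (0.34) and Cd22 (0.18 on the log2 scale). The genes most like Ly6d were Itgb7, a gut-homing integrin of lymphocytes, Il27ra, Lax1, Gimap7 and Ly86 (r = 0.954 to 0.976).

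Ly6a followed the interferon-induced genes, with r = 0.927 (permutation p = 0.00022, adjusted 0.00104) and rho = 0.927 (permutation p = 0.00037, adjusted 0.00148). Without VSG 2 and sham 2 r was 0.851, and within the 7 libraries 0.862. Its 5 most similar genes included the interferon-induced Ifi205 and Ifitm3 (r = 0.932 and 0.931), followed by Tmem194b, Dnase1l3 and Mcart6. For Ly6e the same relation had r = 0.869 (permutation p = 0.00113, adjusted 0.00232) and rho = 0.842 (permutation p = 0.00381, adjusted 0.00762), with 0.804 without VSG 2 and sham 2 and 0.782 within the 7 libraries. Ly6e was most like C1qa, a complement gene of macrophages, 4930572J05Rik, Dnase1l3, Bcl2a1b and the Fc receptor Fcgr4 (r = 0.949 to 0.963). It also followed the T cell markers, at r = 0.886 (permutation p = 0.00116, adjusted 0.00232) and rho = 0.879 (permutation p = 0.00162, adjusted 0.00389), with 0.828 without VSG 3 and sham 3 and 0.888 within the 7 libraries. Over the 10 libraries 11 of 12 T cell markers were lower in VSG with 0 at an unadjusted p under 0.05, led by Ccl5 (-0.77), Itgae (-0.49) and Cd8a (-0.59 on the log2 scale).

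Ly6c1 followed the summed endothelial markers and not the summed myeloid markers, a sum in which Lyz2 weighed most. Lyz2 alone made up 594.8 of 783.8 CPM in VSG 2 and 604.3 of 734.3 CPM in sham 5. In sham 4 it made up 87.26 of 235.8 CPM. The other myeloid markers were not set against Ly6c1 one by one. The low r with the sum therefore does not show that Ly6c1 varied apart from monocyte or macrophage markers. Against the 12 endothelial markers r was 0.923 (permutation p = 0.00026, adjusted 0.00104) and rho 0.952 (permutation p = 1e-04, adjusted 6e-04), with 0.900 without sham 3 and sham 4 and 0.913 within the 7 libraries. Against the markers of monocytes, macrophages and neutrophils r was 0.096 (permutation p = 0.789, adjusted 0.789) and rho -0.006 (permutation p = 1, adjusted 1), with 0.376 without VSG 5 and sham 4 and 0.14 within the 7 libraries. Of the 10 tested of these markers 4 were higher and 6 lower in VSG, with 1, S100a9, at an unadjusted p under 0.05. The lowest p were those of S100a9 (1.48), Cd14 (0.64) and Csf1r (-0.26 on the log2 scale). The summed endothelial markers stood at 154 to 307 CPM in VSG and at 120 to 313 CPM in sham libraries, and all 12 were lower in VSG with 0 at an unadjusted p under 0.05, the lowest p being those of Tek (-0.55), Pecam1 (-0.30) and Plvap (-0.29 on the log2 scale). Unk, Prkd1, Slc43a3, Zufsp and Dnaja4 were most like Ly6c1 (r = 0.948 to 0.967).

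**Figure D4:**
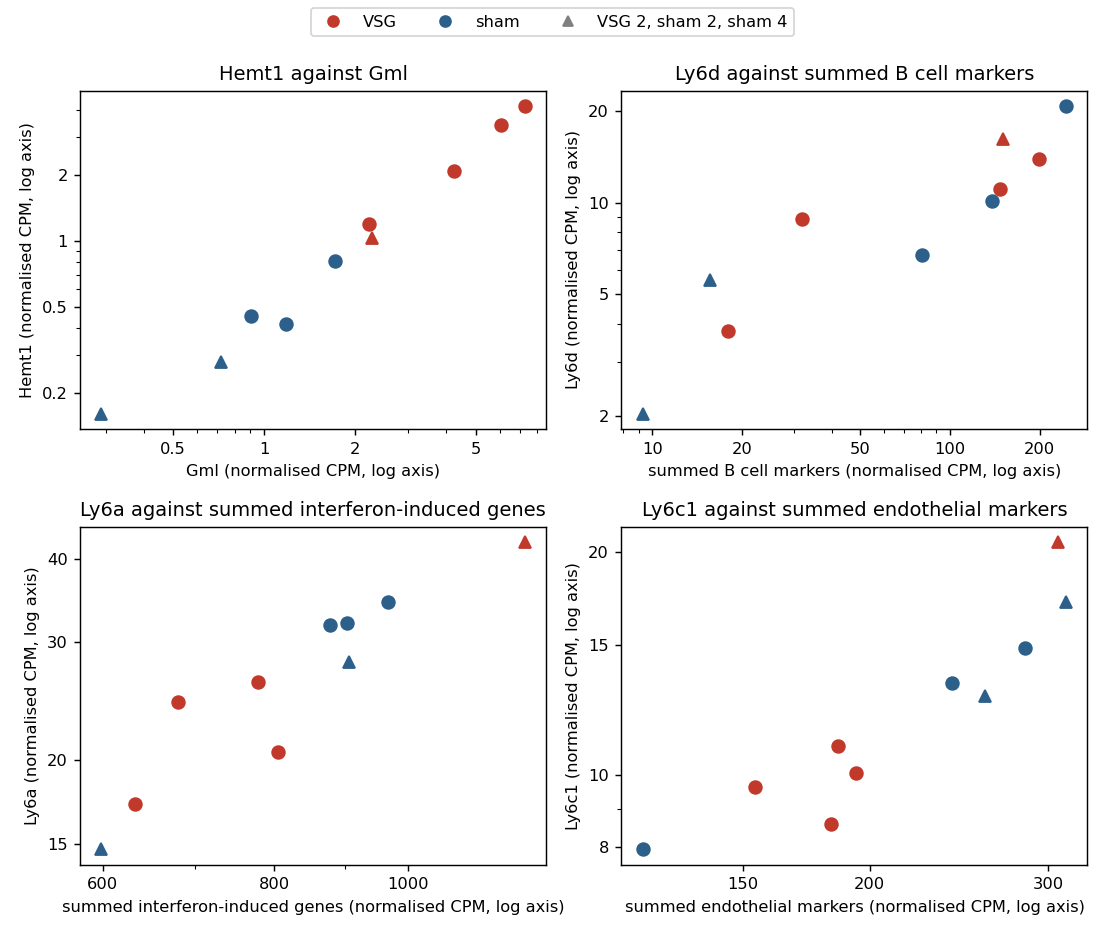
Hemt1 against Gml, Ly6d against summed B cell markers, Ly6a against summed interferon-induced genes and Ly6c1 against summed endothelial markers, each point 1 library in normalised CPM (log axes), VSG in red and sham in blue. Triangles mark VSG 2, sham 2 and sham 4. Pearson's r of the 4 panels is 0.989, 0.913, 0.927 and 0.923, and red and blue points are apart only in the first.

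Gml had a correlation of -0.114 with the interferon-induced genes over the 10 libraries (rho -0.2), -0.899 without VSG 2 and sham 2, and -0.909 within the 7 libraries, so the value depends on which libraries enter. With 2010109I03Rik, Gml had r = 0.62 (rho 0.648), 0.477 without sham 4 and VSG 1 and 0.923 within the 7 libraries. Hemt1 had r = 0.693 with it (rho 0.697), 0.562 without the same pair and 0.922 within the 7. With the ileum markers Gml had r = 0.587 (rho 0.467), 0.726 without sham 4 and VSG 2 and 0.29 within the 7 libraries. All 4 relations include the group difference by which Gml and Hemt1 were chosen. Ly6a with the T cell markers had r = 0.715 (permutation p = 0.0213, adjusted 0.0365) and rho = 0.661 (permutation p = 0.0446, adjusted 0.0641), with 0.621 without VSG 3 and sham 3 and 0.693 within the 7. Ly6a with Ly6e had r = 0.898 (permutation p = 0.00052, adjusted 0.00156) and rho = 0.891 (permutation p = 0.00104, adjusted 0.00312), with 0.884 without sham 2 and sham 3 and 0.838 within the 7.

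Genes that act on the proteins or are tied to the named members by background showed no shared direction. Of all genes 41.9% were higher and 58.1% lower in VSG, 1.88% and 1.91% at an unadjusted p under 0.05. Of 26 genes of GPI anchor synthesis and attachment, 11 were higher and 15 lower in VSG, with 0 at an unadjusted p under 0.05, and the lowest p belonged to Pigl (-0.28), Pigv (0.23) and Pigy (-0.22 on the log2 scale). Of 14 p53 targets 8 were higher and 6 lower, and 1, Trp53inp1, had an unadjusted p under 0.05, at a log2 fold change of 0.46 (edgeR adjusted p = 0.977). Sesn2 and Perp followed at 0.57 and 0.31. Of 11 tested genes of regenerating epithelium, in which Ly6a is known to appear, 7 were higher and 4 lower. Ereg, a growth factor of that state, was at 74.4 CPM in VSG and 42.3 CPM in sham libraries on average, with a log2 fold change of 0.82 (edgeR adjusted p = 0.977). Areg and Il1rn followed at 0.60 and 0.88 on the log2 scale.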

How the data were processed

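Terminal ileum RNA of mice (5 VSG and 5 sham libraries) was sequenced as single-end reads of 50 bases from Illumina TruSeq libraries, per the labels' protocols. The labels do not say if the kit keeps strand, so overlapping antisense genes cannot be told apart. The authors deposited 1 file of estimated counts per library, by Ensembl gene, of which 62.46% are whole numbers within 0.001, and a second file of log2 values, in which the sham median of each gene is 0. The submitters' processing notes name DESeq and the build mm9. An aligner or counter is not stated in the labels or files, and no coordinates are printed because the annotation at hand is of another build.

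Estimated counts were rounded and tested with edgeR 4.0.16 (R 4.3.3): filterByExpr, TMM scaling, a quasi-likelihood F test of surgery with no other term, and p-values adjusted by Benjamini-Hochberg over all genes tested, at a threshold of 0.05. CPM values use TMM factors, log2 CPM a prior count of 2, and intervals are at 95%. Alternatives used DESeq2 1.42.0, limma 3.58.1, other scalings and filters, a block, a covariate and fewer libraries. Levels per kilobase use GENCODE M21 transcript lengths in place of the planned coding lengths, as no protein table was at hand. Depth limits Gml and Hemt1 most, at as few as 5 counts in a library.

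Members and gene lists were chosen with earlier results of these data known. The text names the 6 genes, every family gene past the filter and the 5 genes most like each of the 6. It also names the 3 genes of lowest p of each other list described in the Results for all 10 libraries. Cyp11b1, Ly6k, Ly6g, Lypd6b, 2010109I03Rik and the family genes at 0 were named by position or after their values were seen, as were Gata4, Fabp6 and Lyz2. Some marker lists were not given above for all 10 libraries. There plasma cell markers were higher in VSG in 6 of 6 tested, ileum in 5 of 5 and intestinal epithelium in 5 of 6. Red blood cell and smooth muscle markers were lower in 5 of 5 and 6 of 6. Upper small intestine markers were lower in 6 of 7 and stratified squamous markers in 2 of 2. Nothing in the labels says that the libraries of a group came from separate animals, so p-values measure only the spread between these samples.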

Additional observations from a re-analysis of the deposited data

Results flagged for a closer look

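Among 17 family genes checked in both groups, 34 groups of 5 libraries in all, 4 had 1 library far from the other 4, all of them VSG 2. Chance flags about 1 in 20 groups. Ly6e stood at 190 CPM in VSG 2, with the next VSG library at 106 CPM. Ly6c1 stood at 20.6 CPM in VSG 2 and at 10.96 CPM in the next. Ly6i stood at 1.32 CPM there and at 0.566 CPM in the next, and Lypd1 at 2.52 CPM there and 0.725 CPM in the next. VSG 2 is 1 of the 3 libraries rich in upper small intestine markers and had the highest summed level of interferon-induced genes, 1217 CPM. The part of either in these values was not tested.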

How the results depend on the processing

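Over the alternatives run, the log2 value of Gml ranged between 1.92 and 2.48, and that of Hemt1 between 2.17 and 2.81. Both genes were chosen because every VSG library lay above every sham library. That choice left little room for a change of sign, so their kept direction is no test. Ly6e (-0.78 to -0.17) and Ly6c1 (-0.43 to -0.01) kept their direction under every alternative run. edgeR called 0 genes in each setting, and only the DESeq2 Wald test gave another count, 11. Without 1 library at a time the count stayed at 0, and the log2 fold change was -0.352 to 0.003 for Ly6a, with the reversal without VSG replicate 3, and 0.001 to 0.822 for Ly6d. Without VSG 2, sham 2 and sham 4 Ly6d was -0.402. Other scalings moved the median of all genes to between -0.111 (library totals) and -0.033 (DESeq2 size factors).

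Values near 0 changed sign, and the cause was not tested. Leaving out 1 library turned Ly6c2 to 0.051 (range -0.418 to 0.051), Gpihbp1 to -0.051 (to 0.327), Ly6i to as much as 0.136 (range -0.463 to 0.136), 2210415F13Rik to as low as -0.065 (to 0.458), Ly6g5b to as low as -0.22 (to 0.18) and Ly6g6d to as much as 0.124 (from -0.148). The 7 libraries gave -0.126 for 2210415F13Rik and 0.004 for Ly6g6d, and the upper small intestine covariate -0.061 and 0.009. Ly6g5b was -0.053 when scaled by library totals, -0.034 by upper quartiles, and -0.017 in limma on the authors' log2 file. Ly6g6d was 0.008 with DESeq2 and 0.04 with limma-voom.

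The replicate numbers shared by both groups did not pair the libraries: deviations of same-numbered libraries correlated at 0.073, 0.211, -0.07, -0.344 and -0.08, and 0 of 5 VSG libraries correlated best with their own number. With the number as a block 0 genes were called, with 408 at an unadjusted p under 0.05 in place of 595, Gml was 2.22, Hemt1 2.47, Ly6a -0.15, Ly6e -0.35, Ly6c1 -0.18, Ly6d 0.45 and Ly6g5b -0.017.

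Gml and Hemt1 rest on as few as 9 and 5 counts in a library. Each symbol had 1 gene ID, so no other ID was tried.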
